A study of Homo sapiens with 16 samples.

Results

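The constitutive proteasome genes described here are the 31 genes PSMA1 to PSMA7, PSMB1 to PSMB4, PSMC1 to PSMC6 and PSMD1 to PSMD14, chosen by symbol from the 60669 genes of the deposited tables. Each symbol matched 1 row in both tables, and all 31 passed the filter on low values. The genes were followed in HMC3, an established human cell line labelled as microglial, as wild type and as knockout of METTL3, the catalytic subunit of the enzyme complex that writes N6-methyladenosine (m6A) on RNA. Libraries from rRNA-depleted RNA, 3 of wild type and 3 labelled METTL3 knockout, have a value for every library in TPM, a share of the library's transcripts after division by gene length. Poly(A) libraries made with Smart-seq2, 5 of wild type and 5 labelled METTL3 knockout, are known here through the authors' deposited table, a comparison of the genotypes without values per library. No treatment is named in the labels, and they do not say whether the knockout is 1 clone or a pool, or whether replicates were separate cultures, so p-values measure only the spread between these libraries, which may be technical.

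The proteasome degrades proteins tagged with ubiquitin. Its 20S core particle is a barrel of alpha rings, which gate the entrance, and beta rings, which hold the cutting sites inside. Its 19S regulatory particle caps the barrel: a ring of ATPases (the PSMC genes) unfolds the substrate, and non-ATPase subunits (most PSMD genes) bind ubiquitin chains, remove them and hold the particle together. PSMD5, PSMD9 and PSMD10 carry PSMD names but encode chaperones that help to assemble the ATPase ring and leave before the particle is finished. Because subunits are built in at fixed ratios, their genes are known to be expressed together, and in human cells NFE2L1 (the protein NRF1) raises them when proteasome activity falls.

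The depth recovered from the TPM values was 266157 to 487272 reads in the wild-type libraries and 512627 to 1267171 in the knockout-labelled libraries. Knockout-labelled libraries 1 and 2 did not differ detectably beyond sampling noise (chi-square 1.02 per degree of freedom over 10120 genes, p = 0.065, chi-square test over genes) and were averaged and counted as 1 sample, so that 3 wild-type samples stand against 2 under the knockout label. METTL3 mRNA was 31.2, 31.6 and 25.4 TPM in the wild-type and 39.2, 39.96 and 42.7 TPM in the knockout-labelled libraries (limma adjusted p of 0.106; exact permutation p = 0.2, two-sided, the smallest that 3 against 2 samples allow), so it does not check the label. Of 10 microglial markers, 8 were listed at 0 in every rRNA-depleted library, AIF1, CX3CR1, P2RY12, TMEM119, ITGAM, PTPRC, SPI1 and C1QA, while 6 mesenchymal markers summed to 10820.0 to 13270.0 TPM in the wild-type and 3388 to 3554 TPM in the knockout-labelled libraries. The summed levels of short lists for other brain cells were low, from 1.31 to 5.62 TPM for astrocytes, from 3.20 to 13.8 TPM for neurons and at most 2.33 TPM for oligodendrocytes over all 6 libraries. Protein-coding genes together held 60.7% to 63.6% of TPM in the wild-type and 75.8% to 77.3% in the knockout-labelled libraries. Whether these differences have a part in the results below was not tested, and fewer cells of a type and less RNA per cell cannot be told apart in bulk RNA.

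In the wild-type libraries the 31 genes spanned from 4.56 TPM for PSMA2 to 787 TPM for PSMA7, each a mean of 3. PSMA7, an alpha-ring subunit, alone made up 22.4% to 23.4% of their summed TPM in the wild-type and 16.6% to 19.3% in the knockout-labelled libraries. PSMB4, PSMB3 and PSMB2 of the beta ring came next in the wild type, at 409 ± 101 TPM, 292 ± 69.6 TPM and 286 ± 36.0 TPM (SD, n = 3). The range of PSMB3, 228.5 to 366.5 TPM, overlapped those of the other genes. PSMB4, at 340.5 to 524.3 TPM, lay above PSMB2, at 252.1 to 323.9 TPM. Differences between these genes were not tested. In GENCODE 29, 4 members have exons partly shared with another gene on the same strand (PSMA1, PSMA2, PSMA6 and PSMD9, 14.1% to 24.7% of exon bases). All 4 were at or below a mean of 14.3 TPM in the wild type, and the read-through gene annotated over each was listed at 0 TPM in all 6 libraries. PSMD9 also shares exon bases with WDR66 on the same strand, whose level was not examined. On the opposite strand, PSMC1, at 8.16 TPM, shares 75.8% of its exon bases with NRDE2, PSMD7 30.7% with a processed transcript, PSMC5 19.5% with FTSJ3 and PSMD1 10.8% with HTR2B. PSMA2 shares exon bases with MRPL32 and a pseudogene, and PSMD11, PSMD6, PSMD13, PSMD9 and PSMD14 share 2.1% to 9.4% in this way. The rRNA-depleted libraries were made with a directional kit, which marks strand, and Smart-seq2 does not mark it. How reads in shared exons were assigned, and whether by strand, is not given in the sources used here, so reads of a member and of the gene that shares its exons cannot be told apart there and these levels are uncertain to that extent. PSMA1 rested on 1, 3 and 3 reads in the wild-type libraries and PSMA2 on 4, 2 and 4, so the sizes of their changes in these libraries cannot be read.

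**Figure D1:**
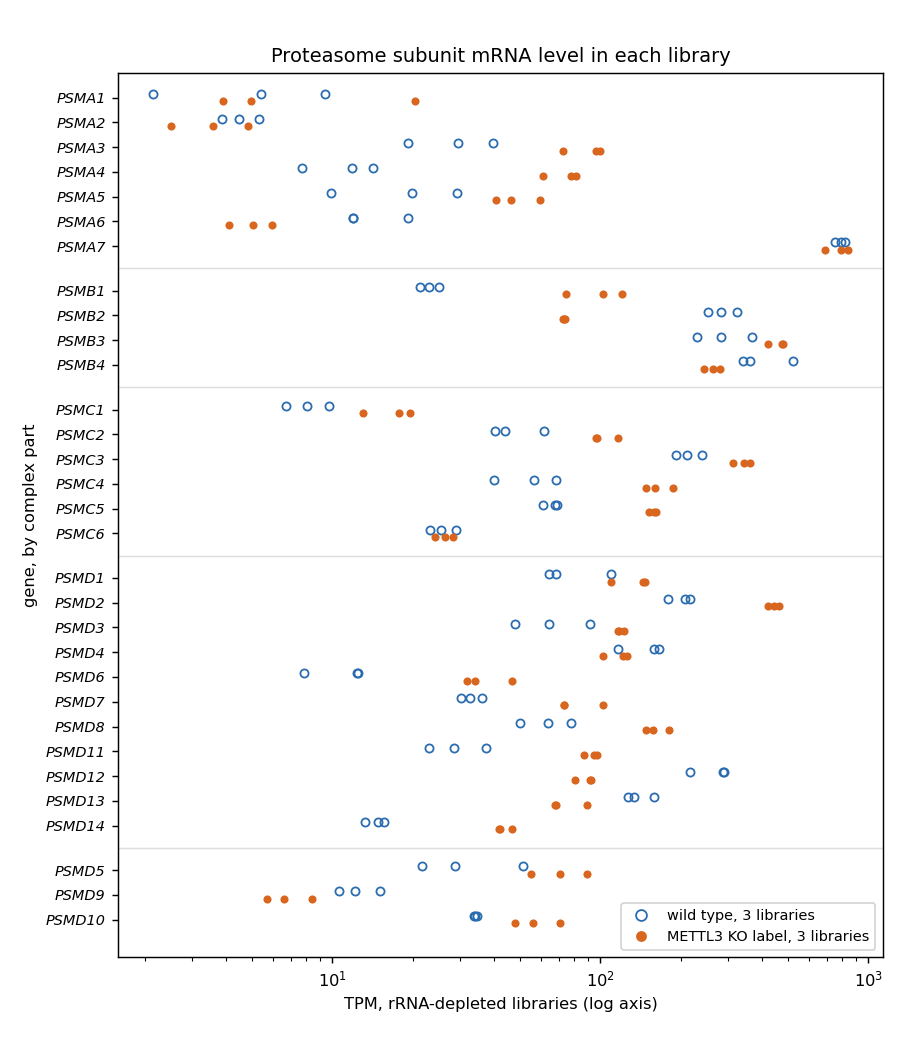
TPM on a log axis for each of the 31 proteasome genes, grouped by part of the complex, with open points for the 3 wild-type libraries and filled points for the 3 libraries labelled METTL3 knockout. For 6 genes, PSMB2, PSMD12 and PSMD13 among them, all filled points lie to the left of the open points, and for 19 genes, PSMA4 and PSMB1 among them, to the right.

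The rRNA-depleted comparison asks how these mRNAs differ between the genotypes in total RNA without ribosomal RNA. Of the 31 genes, 14 rose and 3 fell in the knockout-labelled libraries at a limma adjusted p under 0.05 over all genes, against 22.9% of all 14789 genes tested that rose and 12.4% that fell. The genes that rose were PSMA3, PSMA4, PSMB1, PSMC2, PSMC3, PSMC4, PSMC5, PSMD2, PSMD6, PSMD7, PSMD8, PSMD10, PSMD11 and PSMD14, and those that fell were PSMB2, PSMD12 and PSMD13. The libraries of the groups did not overlap for 19 genes that were higher and 6 that were lower in the knockout-labelled libraries, against 38.4% and 19.9% of all genes tested. Scaling matters for the balance. TPM rescaled over protein-coding genes gave 13 members higher and 7 lower, beside 2516 higher and 1990 lower of all 11971 genes tested there. Median ratio scaling moved the median change of all genes from 0.41 to 0.11. It gave 11 members higher and 7 lower, beside 2363 and 2499 of all 14789 genes. All 17 genes kept the sign of their change under each of the 18 alternatives run, among them each scaling. Leaving out knockout-labelled library 3 leaves that group with 1 sample, assumed to vary like the wild type. Fewer members and fewer of all genes then passed, and the members' median log2 change was 0.43 above that of all genes.

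The median log2 change of the 31 genes was 0.84 on the log2(TPM + 1) scale, against 0.41 over all genes tested, a difference of 0.43. That difference was 0.04 once the trend with transcript GC content was removed from each library. The log2 change fell with GC content over all 14669 genes with a value (Spearman rho of -0.37, a description across genes of the same libraries), and less so over the 31 members (rho of -0.13), which share those libraries. Among genes under 40% GC, the median log2 change was 1.19 over all genes and 1.25 over 8 members. At 55% GC or more it was -0.17 over all 4194 genes, while the 4 members there, PSMA7, PSMC3, PSMC4 and PSMD8, had a median log2 change of 1.04, and all of these but PSMA7 rose.

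**Figure D2:**
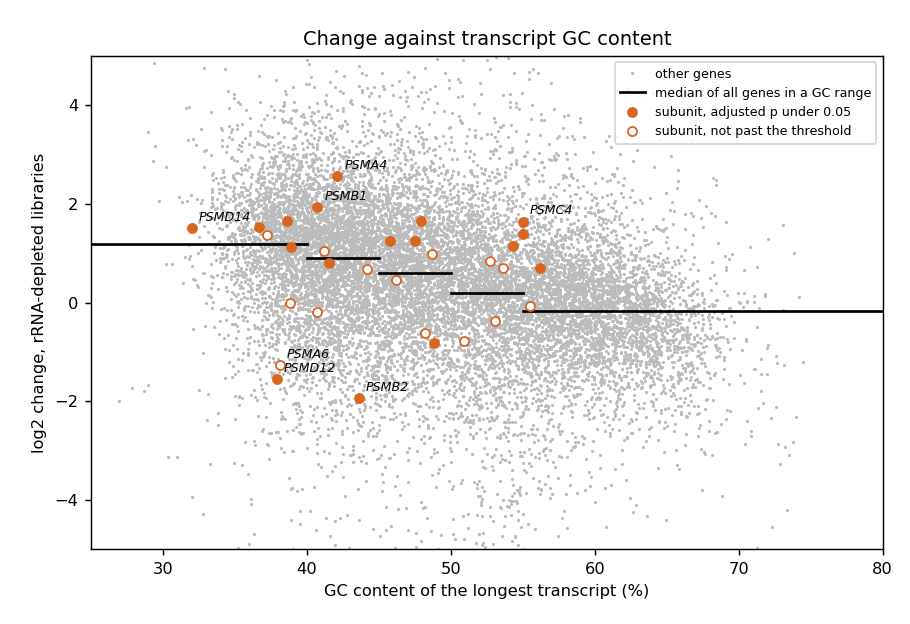
Log2 change in the rRNA-depleted libraries against the GC content (%) of the longest transcript, with grey points for all other genes, black bars for the median of all genes in a GC range, and orange points for the 31 proteasome genes, filled where the limma adjusted p was under 0.05. The black bars step down from 1.19 to -0.17, and PSMB2 and PSMD12 lie far below the bar of their GC range.

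RefSeq's table of promoters (GRCh38.p14) matched 28 of the 31 genes, PSMA7, PSMB1 and PSMD4 having no entry. Of the 200 bases before RefSeq's transcript start, the longest stretch free of GENCODE 29 exons is shown, among the 15 members where it reaches 100 bases, for the genes with the 2 highest and the 2 lowest changes in the rRNA-depleted libraries. These are PSMA4 and PSMD6, which rose, PSMD12, which fell, and PSMA6, which did not pass, and they let genes that differed in opposite directions be read side by side. Capitals mark matches on either strand to a CCAAT box (CCAAT), a GC box (GGGCGG), the core of an antioxidant response element (TGACNNNGC, the element to which NFE2L1 and NFE2L2 bind) and an ETS core (CCGGAAG). The stretches are chr15:78540205-78540404 for PSMA4, on the plus strand, chr3:64023561-64023694 for PSMD6, on the minus strand, chr17:67366628-67366777 for PSMD12, on the minus strand, and chr14:35292117-35292316 for PSMA6, on the plus strand.
PSMA4: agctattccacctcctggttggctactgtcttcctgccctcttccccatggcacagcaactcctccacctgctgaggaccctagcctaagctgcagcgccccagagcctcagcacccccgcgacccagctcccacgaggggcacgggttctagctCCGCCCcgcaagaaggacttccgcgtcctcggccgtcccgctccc
PSMD6: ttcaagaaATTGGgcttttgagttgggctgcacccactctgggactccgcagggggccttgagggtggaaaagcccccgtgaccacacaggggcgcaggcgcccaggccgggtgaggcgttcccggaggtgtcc
PSMD12: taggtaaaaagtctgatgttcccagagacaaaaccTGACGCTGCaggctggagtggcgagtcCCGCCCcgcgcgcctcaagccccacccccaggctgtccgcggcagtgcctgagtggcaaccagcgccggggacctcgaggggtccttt
PSMA6: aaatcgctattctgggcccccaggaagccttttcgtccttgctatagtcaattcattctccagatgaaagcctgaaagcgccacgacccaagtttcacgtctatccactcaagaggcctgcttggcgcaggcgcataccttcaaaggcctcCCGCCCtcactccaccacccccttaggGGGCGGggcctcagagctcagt

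The printed stretch of PSMD12 holds 1 match to the antioxidant response element core and 1 GC box, that of PSMD6 a CCAAT box, that of PSMA4 a GC box and that of PSMA6 2 GC boxes. Over the whole window of each gene, 250 bases before to 50 after the start, CCAAT was found in 14 of 28 members and in 35.7% of all 27305 promoters of that length. The ETS core was found in 10 of 28 members and 10.7% of all promoters, the GC box in 19 of 28 and 44.6%, and the antioxidant response element core in 7 of 28 and 13.6%. A TATA box (TATAAA) was found in 4 members and 12% of all promoters, an E-box (CACGTG) in 2 and 7.4%, and a nuclear respiratory factor repeat in 5 and 6.3%. Of the 13 members with an entry that rose in the rRNA-depleted libraries, 9 held CCAAT and 1 the antioxidant response element core. Of the 3 that fell, PSMB2 alone held CCAAT, in a match that spans its transcript start, and PSMD12 alone the element core. The GC box was in 8 of the 13 and 2 of the 3, and the ETS core in 5 and 2. The TATA box and the repeat were each in 3 of the 13 and 0 of the 3, and the E-box in 0 of either. Of the 16 with an entry that fell in the authors' deposited table, 10 held CCAAT and 2 the element core. Differences between these sets were not tested. No matches of different motifs overlapped in the 28 members, and a match is a description of letters, not a bound site.

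In the alpha ring, PSMA3 and PSMA4 rose and the other 5 genes did not pass. Thus 28.6% of the 7 genes rose, near the 22.9% of all genes tested. Their median log2 change was 0.46, beside 0.41 over all genes. PSMA4, whose N-terminal tail takes part in closing the gate of the barrel, had 14.2, 11.8 and 7.70 TPM across wild-type libraries and 80.97, 77.5 and 60.9 TPM in the knockout-labelled libraries. Every knockout-labelled library thus lay above every wild-type library, on 8 to 14 reads in the wild type and 66 to 198 in the others. PSMA4 lies on the plus strand at chr15:78540405-78552419 (GRCh38, as are all positions given here). The log2 change of PSMA4, 2.56 (SE 0.32, limma adjusted p of 0.00453), was the highest of the 31 genes and 2.15 above the median of all genes. PSMA3 had 29.5 ± 10.3 TPM (SD, n = 3) in wild-type libraries against 85.4 ± 18.4 TPM (SD, n = 2), a log2 difference of 1.54 (SE 0.34, limma adjusted p of 0.022) that did not pass with the GC trend removed, or without wild-type library 1 or knockout-labelled library 3.

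PSMA7 had 789, 751 and 821 TPM in the wild-type and 839, 790.4 and 686 TPM in the knockout-labelled libraries. Those ranges overlap, with a log2 difference of -0.07 (SE 0.12, limma adjusted p of 0.654). PSMA6 had the lowest change of the alpha ring, with 11.98, 19.1 and 11.96 TPM in the wild type against 4.12, 5.05 and 5.96 TPM, on 6 to 13 reads in every library. The groups do not overlap, and the limma adjusted p was 0.0552 (log2 change -1.27, SE 0.39). This gene passed as lower in 9 of the 18 alternatives. PSMA6 is 1 of the genes with shared exons. PSMA5, a structural subunit of the ring, did not overlap either, with 9.90, 19.9 and 29.3 TPM against 40.99, 59.3 and 46.3 TPM, and a limma adjusted p of 0.0697. The few reads of PSMA1 and PSMA2 gave overlapping groups, with limma adjusted p-values of 0.662 and 0.768.

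In the beta ring without its catalytic subunits, 1 of 4 genes rose, 1 fell and 2 did not pass. The share that rose was near the 22.9% of all genes tested, of which 12.4% fell. The median log2 change of the 4 genes was 0.04, beside 0.41 over all genes. PSMB2 had 282, 252 and 324 TPM across wild-type libraries and 74.1, 72.4 and 73.3 TPM in the knockout-labelled libraries, with no overlap and with 55 to 262 reads in every library. PSMB2 (chr1:35599544-35641844, minus strand) had the lowest log2 change of the 31 genes, -1.94 (SE 0.14, limma adjusted p of 0.00135), which was 2.35 below the median of all genes. PSMB1 of the same ring (chr6:170535117-170553341, minus strand) had 25.1, 22.9 and 21.2 TPM in the wild type and 103, 120.2 and 74.4 TPM in the knockout-labelled libraries, again without overlap, on 5 to 8 reads in the wild type. Its log2 change was 1.94 (SE 0.23, limma adjusted p of 0.00396). The log2 change of PSMB1 was 1.53 above the median of all genes.

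PSMB3 and PSMB4 also had groups that do not overlap, in opposite directions. PSMB3 was at 292 ± 69.6 TPM (SD, n = 3) in wild-type samples and 464 ± 17.6 TPM (SD, n = 2) under the knockout label (limma adjusted p of 0.0536). PSMB4 was at 409 ± 101 TPM (SD, n = 3) in the former and at 279.6, 243.7 and 263.3 TPM in the latter. The limma adjusted p of PSMB4 was 0.0734, and it passed as lower in 7 of the 18 alternatives.

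Of the 6 ATPases of the 19S base, 4 rose, 0 fell and 2, PSMC1 and PSMC6, did not pass. The share that rose was 66.7%, beside 22.9% of all genes tested. PSMC4 had 68.3, 56.4 and 40.1 TPM in the wild-type and 160.1, 148 and 187 TPM in the knockout-labelled libraries, the highest log2 change of the ring at 1.64 (SE 0.25, limma adjusted p of 0.0078). PSMC5 (chr17:63827152-63832026, plus strand) was the most even, with 67.8, 69.1 and 61.3 TPM against 162, 151 and 158 TPM, a log2 difference of 1.24 (SE 0.12, limma adjusted p of 0.00249). In neither gene did the groups overlap. PSMC2 (1.14) and PSMC3 (0.70) rose by less on the log2 scale, and neither passed under median ratio scaling. PSMC2 did not pass with the GC trend removed (0.49), and PSMC3 not without the trend of variance on expression. PSMC3 ranged from 0.34 under median ratio scaling to 1.23 with the GC trend removed. PSMC2 had 44.0, 61.4 and 40.6 TPM in the wild type against 96.6, 97.5 and 117 TPM, which do not overlap. PSMC3, the ATPase with the highest TPM, had 214 ± 24.5 TPM (SD, n = 3) in wild-type libraries against 346 ± 24.7 TPM (SD, n = 2).

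PSMC1 had 8.05, 6.72 and 9.72 TPM against 13.1, 19.6 and 17.8 TPM, apart but on 4 to 10 reads in the wild type, with a limma adjusted p of 0.0682. PSMC6 was the one ATPase whose libraries overlapped. It had 25.6, 29.05 and 23.2 TPM in the wild-type and 28.2, 26.4 and 24.2 TPM in the knockout-labelled libraries, fully overlapping, with a log2 difference of -0.01 (SE 0.21, limma adjusted p of 0.981). Its ring partner PSMC4 had a mean of 54.9 TPM beside 25.9 TPM for PSMC6 in the wild type, and of 170.4 beside 25.7 TPM under the knockout label.

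Of the 11 non-ATPase subunits, 6 rose, 2 fell and 3 (PSMD1, PSMD3 and PSMD4) did not pass. The share that rose was 54.5%, beside 22.9% of all genes tested, of which 12.4% fell. PSMD11, which clamps the 19S lid to the core, had 28.5, 23.0 and 37.4 TPM in the wild type and 87.1, 94.7 and 96.9 TPM in the knockout-labelled libraries. PSMD14, the enzyme that cuts ubiquitin chains off the substrate, had 15.6, 14.8 and 13.2 TPM against 42.2, 46.97 and 41.95 TPM. Their log2 changes were 1.66 (SE 0.24) and 1.51 (SE 0.21), with limma adjusted p-values of 0.00637 and 0.00591, and the latter did not pass with the GC trend removed.

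PSMD2 (chr3:184298709-184309054, plus strand), the docking subunit for ubiquitin shuttle proteins, was the best covered gene that rose, with 94 to 189 reads in the wild-type libraries. Its levels were 216, 178 and 208 TPM against 464, 420.4 and 443 TPM, a log2 difference of 1.14 (SE 0.12, limma adjusted p of 0.0029). The groups are far apart compared with their spread. PSMD6 (log2 change 1.66), PSMD8 (1.39) and PSMD7 (1.25), structural subunits of the lid, also rose, the last being the partner of PSMD14. PSMD6 had 12.4, 12.5 and 7.88 TPM against 47.0, 34.2 and 31.9 TPM. PSMD7 had 36.2, 30.2 and 32.8 TPM against 73.4, 102 and 73.1 TPM, and PSMD8 77.6, 49.99 and 63.6 TPM against 148, 157 and 181 TPM. The groups are apart in all 3 genes. PSMD6 was at 0.99 with the GC trend removed (limma adjusted p of 0.049). PSMD6 and PSMD7 were less well covered, with 8 to 16 reads in the wild-type libraries.

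PSMD12 and PSMD13, also structural subunits of the lid, went the other way. PSMD12 (chr17:67337916-67366627, minus strand) had 287, 216 and 290.2 TPM across wild-type libraries and 92.5, 80.7 and 91.5 TPM in the knockout-labelled libraries. PSMD13 (chr11:236546-252984, plus strand) had 126, 159 and 133 TPM against 68.2, 67.8 and 89.4 TPM. The groups overlapped for neither gene, and the log2 changes were -1.55 (SE 0.16, limma adjusted p of 0.00313) and -0.82 (SE 0.18, limma adjusted p of 0.0204). PSMD13 did not pass without the trend of variance on expression. PSMD12 was at the 5th place of the 31 genes by mean TPM in the wild type and at the 15th under the knockout label, and PSMB2 at the 4th and the 19th.

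PSMD4, an intrinsic ubiquitin receptor, had 166, 116 and 158 TPM in the wild type and 122, 126 and 102 TPM under the knockout label, overlapping, with a limma adjusted p of 0.21. Its log2 change was -0.36 (SE 0.20). PSMD1, the large scaffold subunit, overlapped as well, at 64.2, 109.7 and 68.1 TPM against 147, 145 and 109.6 TPM. PSMD3 had 68.1 ± 22.0 TPM (SD, n = 3) and 118 ± 1.77 TPM (SD, n = 2), and the limma adjusted p was 0.0697.

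Among the assembly chaperones, PSMD10 (gankyrin, also known as an oncoprotein) rose and PSMD5 and PSMD9 did not pass. With 1 of 3 genes, 33.3% rose, beside 22.9% of all genes tested. PSMD10 had 34.6, 33.7 and 34.1 TPM across wild-type libraries and 55.9, 47.9 and 70.9 TPM in the knockout-labelled libraries, a log2 difference of 0.81 (SE 0.19, limma adjusted p of 0.0251). Its groups do not overlap, but 10 of the 18 alternatives, each scaling among them, left it short of the threshold. PSMD5 had 28.8, 51.4 and 21.6 TPM against 89.2, 70.5 and 55.4 TPM, apart but with a limma adjusted p of 0.101. PSMD9 had 12.1, 10.6 and 15.0 TPM against 5.73, 8.43 and 6.62 TPM, lower in all 3 knockout-labelled libraries, with a limma adjusted p of 0.134.

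The summed level of the 31 genes was 3261.8 to 3519.3 TPM in the wild-type and 4145.8 to 4352.6 TPM in the knockout-labelled libraries. With TPM recomputed over protein-coding genes alone, the sum was 5376 to 5536.5 in the wild-type and 5461 to 5630.5 in the knockout-labelled libraries, which overlap. Within that sum the parts of the complex shifted. The 6 ATPases took 606 to 713 protein-coding TPM in the wild type and 1001 to 1144 under the knockout label, and the 4 beta-ring genes 1477.5 to 1727 and 1114 to 1212. Neither of these pairs of ranges overlaps. The catalytic subunits PSMB5 to PSMB7, which are not among the 31 genes, together took 529 to 649 and 901 to 1015, and the beta ring summed with them overlapped, at 2126.4 to 2279 protein-coding TPM in the wild type and 2078 to 2186 under the knockout label. The 11 non-ATPase subunits took 1650 to 1720 and 1813 to 1820.1, and the 3 chaperones 111 to 158 and 164.5 to 195, also apart. The alpha ring overlapped, at 1356.5 to 1414.5 and 1162 to 1403 protein-coding TPM, being made up largely of PSMA7. Sums are led by the abundant genes, PSMB3 and PSMB4, with PSMB2 in the wild type, in the beta ring and PSMC3 among the ATPases.

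**Figure D3:**
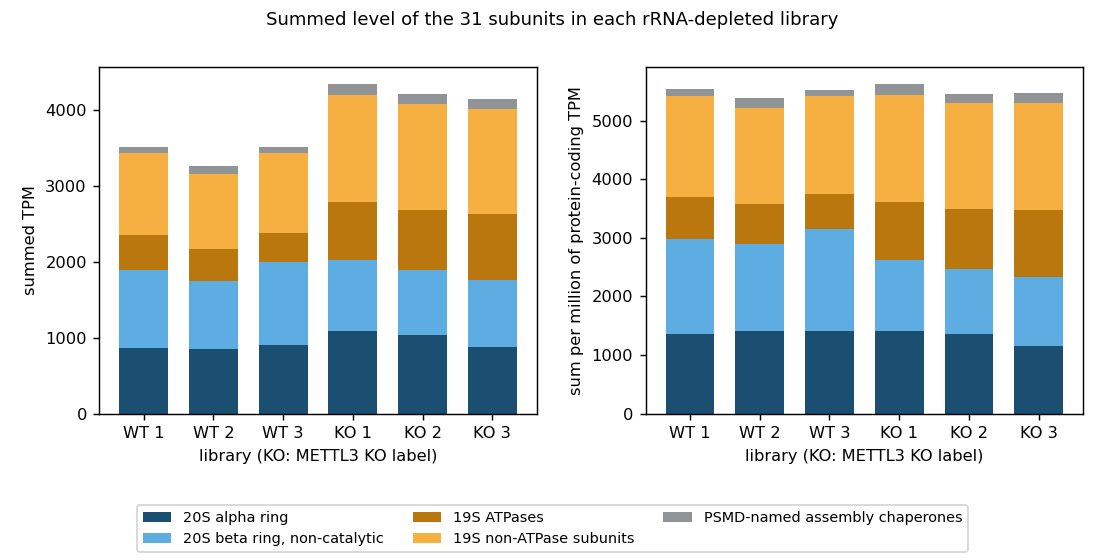
Bars for each rRNA-depleted library give the summed TPM of the 31 genes (left panel) and the sum of TPM recomputed over protein-coding genes (right panel), stacked by part of the complex. The left bars are higher in the knockout-labelled libraries, at 4145.8 to 4352.6 TPM, and the right bars are level, with a larger ATPase block and a smaller block of the 4 non-catalytic beta-ring genes in the knockout-labelled libraries.

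The poly(A) comparison asks the same of polyadenylated mRNA. In the authors' deposited table, 19 of the 31 genes were lower and 1 was higher at an adjusted p under 0.05, against 10.3% of all 14009 genes with an adjusted p that were lower and 9.55% that were higher. Among genes of the authors' deposited table with a mean of at least 50 normalized counts, 18.7% were lower. The median log2 fold change of the 31 genes in the authors' deposited table was -0.32, against 0.02 over all genes, and 28 of 31 values were below 0. The changes were small, from -0.93 for PSMA6 to 0.37 for PSMD10 in the authors' deposited table, and 0 of the 31 genes passed the threshold with a log2 fold change of 1 or more in size.

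The direction in the poly(A) comparison rests on a reading of the table. It does not say which genotype is the numerator, and positive was taken as higher in the knockout-labelled libraries because the signs then match in 91.5% of the 177 genes that passed in both comparisons with changes of 1 or more in size. Over all 1327 genes that passed in both, the signs match in 67.3%. If the numerator were the wild type, the 19 genes of the authors' deposited table would be higher, not lower.

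All 4 beta-ring genes fell in the authors' deposited table, PSMB1 by 0.62 on the log2 scale (SE 0.10), PSMB3 by 0.61 (SE 0.11), PSMB4 by 0.56 (SE 0.14) and PSMB2 by 0.54 (SE 0.08). The adjusted p-values of these genes in the authors' deposited table ran from 1.04e-09 for PSMB2 to 0.000899 for PSMB4. Of the 7 alpha-ring genes in the authors' deposited table, 5 fell, PSMA6 by 0.93 (SE 0.28), PSMA1 by 0.53, PSMA5 by 0.38, PSMA7 by 0.32 and PSMA3 by 0.30. PSMA4, the gene with the highest change in the rRNA-depleted libraries, stood at -0.13 (SE 0.08, adjusted p 0.277) in the authors' deposited table.

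Among the ATPases, 4 of 6 fell in the authors' deposited table: PSMC3 by 0.54 (SE 0.08, adjusted p 1.05e-09), PSMC1 by 0.34, PSMC2 by 0.33 and PSMC5 by 0.29. PSMC4 and PSMC6 did not pass there, at -0.10 and -0.19. Of the 11 non-ATPase subunits 6 fell in the authors' deposited table, PSMD3 by 0.50, PSMD4 by 0.47, PSMD11 by 0.45, PSMD7 by 0.40, PSMD13 by 0.30 and PSMD6 by 0.21. PSMD2 did not pass in the authors' deposited table, at -0.09 (SE 0.05, adjusted p 0.261). PSMD1, PSMD8 and PSMD14 did not pass either, at -0.10, -0.05 and -0.16 in the authors' deposited table. PSMD12, one of the genes that fell in the rRNA-depleted libraries, did not pass there either, at -0.12 (SE 0.06, adjusted p 0.198 in the authors' deposited table).

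Of the 3 members with a value above 0 in the authors' deposited table, 2 were assembly chaperones, and the other was PSMA2 at 0.11. PSMD5 was the 1 member that rose in the authors' deposited table, by 0.27 (SE 0.07, adjusted p 0.00237), PSMD10 had 0.37 (SE 0.15, adjusted p 0.0661) and PSMD9 -0.44 (SE 0.21, adjusted p 0.144). A difference between chaperones and subunits was not tested.

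**Figure D4:**
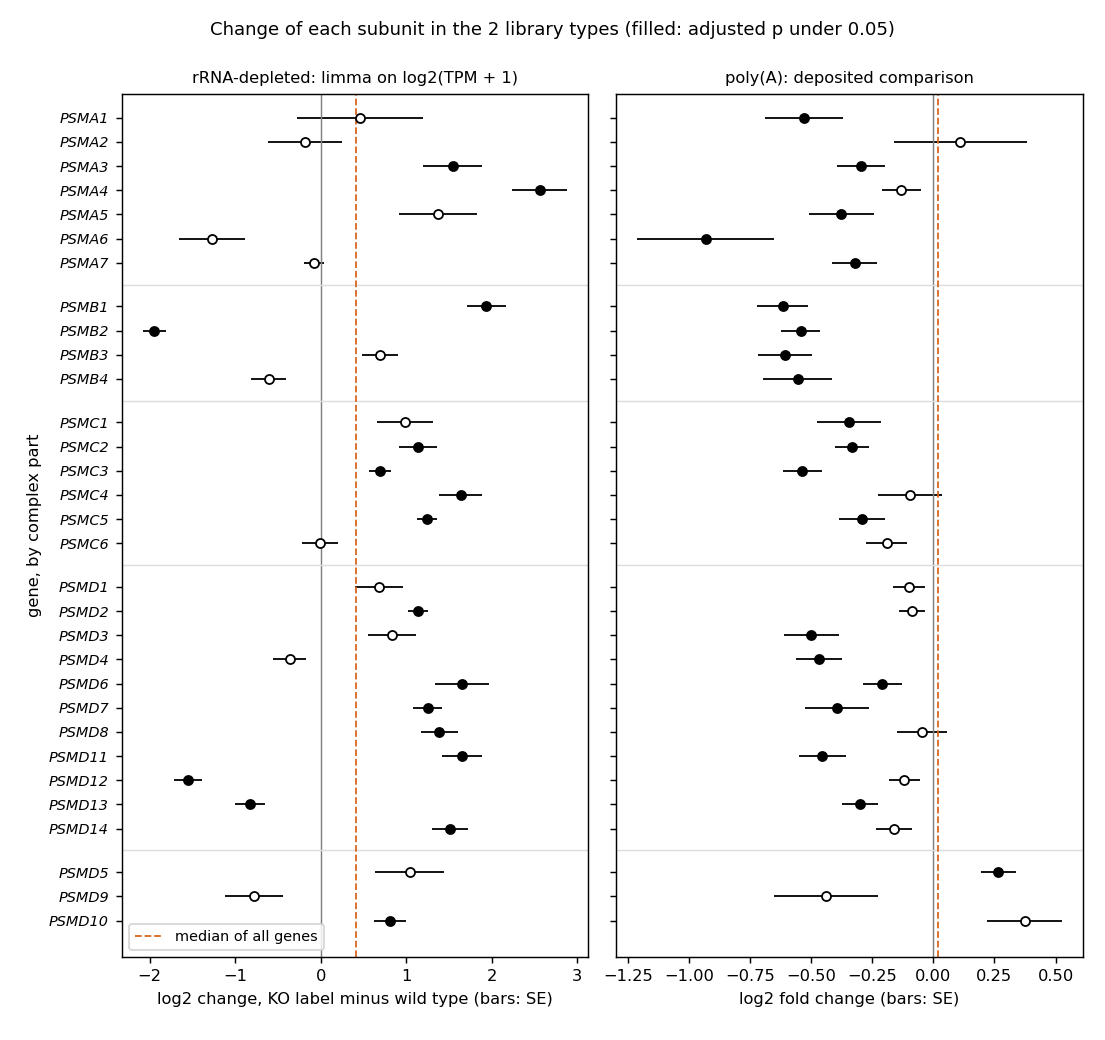
Log2 change of each of the 31 genes with its standard error, in the rRNA-depleted libraries (left, limma on log2(TPM + 1)) and in the authors' deposited poly(A) comparison (right), filled where the adjusted p was under 0.05 and with the median of all genes dashed. The left panel has 14 filled points above 0 and 3 below, and the right panel 1 above and 19 below, on a narrower axis.

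Set side by side, 8 genes rose in the rRNA-depleted libraries and were lower in the authors' deposited table: PSMA3, PSMB1, PSMC2, PSMC3, PSMC5, PSMD6, PSMD7 and PSMD11. They are 8 of the 14 that rose in the first and of the 19 that fell in the second, and 3.03% of the 12498 genes in both comparisons had this pair of calls. PSMB2 and PSMD13 fell in both, a pair of calls held by 1.96% of genes. If the numerator were the wild type, the 8 genes would be higher in both comparisons, and PSMB2 and PSMD13 lower in the first and higher in the second, with the same shares of all genes. By sign alone, 19 of 31 genes were above 0 in the rRNA-depleted libraries and below 0 in the authors' deposited table, as were 28.7% of all genes, and with the wild type as numerator these would be above 0 in both. The library types differ in selection, kit and scaling, and the labels do not say whether they were made from the same RNA, so library type, kit and scaling cannot be told apart. The Spearman rho between the log2 changes of the 31 genes in the 2 comparisons was 0.24, as a description over genes that share libraries within each comparison.

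**Figure D5:**
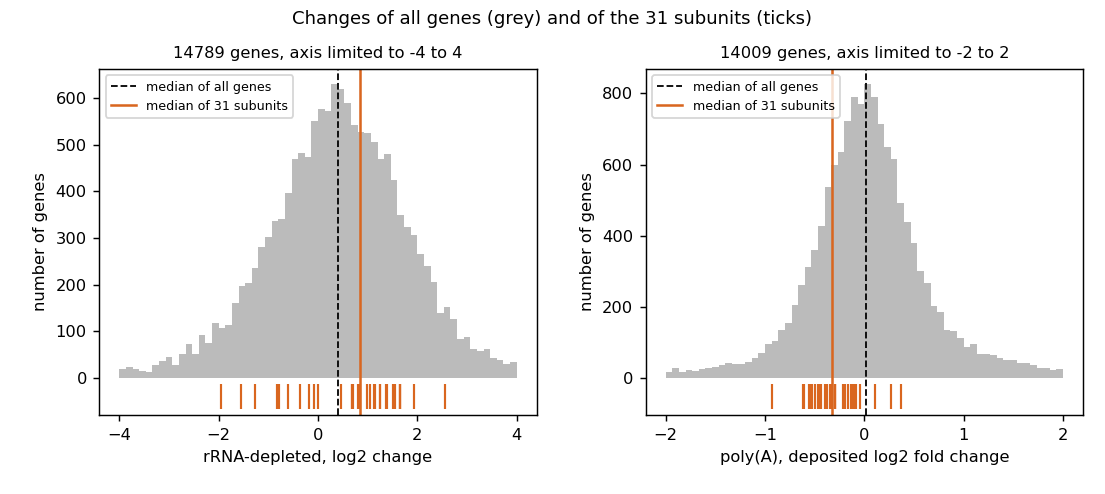
Histograms of the log2 change of all genes in the rRNA-depleted libraries (left) and of the log2 fold change in the authors' deposited poly(A) table (right), in genes per bin, with a tick for each of the 31 proteasome genes and lines at the medians of all genes (dashed) and of the 31 genes (orange). The orange line lies to the right of the dashed line on the left, 0.84 against 0.41, and to the left of it on the right, -0.32 against 0.02.

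Other genes of the pathway were followed as lists. Of the constitutive catalytic subunits, PSMB6 (log2 change 1.73) and PSMB7 (1.76) rose in the rRNA-depleted libraries and PSMB5 did not pass (-0.17). All 3 were lower in the authors' deposited table, at -0.30, -0.38 and -0.36, beside 10.3% of all genes there. PSMB8, the interferon-inducible counterpart of PSMB5, fell by 0.87 in the rRNA-depleted libraries and stood at 0.58 in the authors' deposited table, where PSMB9 stood at 1.15. In the rRNA-depleted libraries PSMB9 did not pass (log2 change 0.27, limma adjusted p of 0.569). PSMB10, on 0 to 3 reads per rRNA-depleted library, passed in neither comparison. With the GC trend removed PSMB8 was at -0.39 and did not pass (limma adjusted p of 0.208), and without knockout-labelled library 3 neither PSMB7 nor PSMB8 passed.

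Of 6 assembly factors, PSMG2 and POMP rose in the rRNA-depleted libraries and 0 fell, against the 22.9% and 12.4% of all genes, while PSMG4 and POMP fell in the authors' deposited table. POMP, the chaperone of core maturation, had a log2 difference of 1.74 (SE 0.44) in the former and -0.36 (SE 0.12) in the authors' deposited table. With the GC trend removed POMP was at 0.83 (limma adjusted p of 0.194), and it also missed the threshold under median ratio scaling, without the trend of variance on expression, and without wild-type library 2 or knockout-labelled library 3, the last of which ended the call of PSMG2 too. Of 12 activators, inhibitors and associated factors, 9 rose and 0 fell in the rRNA-depleted libraries, with a median log2 change of 1.43, beside the same 22.9%, 12.4% and a median of 0.41 over all genes. Of the 12, 2 were higher in the authors' deposited table, PSME1 and PSME2. SEM1 and ADRM1, which are themselves 19S subunits outside the member list, were lower there. The share that was lower there was 16.7% of these 12 genes and 33.3% of the assembly factors. Of all genes there, 9.55% were higher and 10.3% lower, and 18.7% lower among those with a mean of at least 50 normalized counts.

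PSME1 and PSME2, the interferon-inducible alpha and beta chains of the 11S activator that can replace the 19S cap, were higher in both library types. PSME1 had 51.7, 40.7 and 47.1 TPM across wild-type libraries and 262, 244.5 and 250.2 TPM in the knockout-labelled libraries, a log2 difference of 2.42 (SE 0.14). PSME2 had 11.9, 11.6 and 10.03 TPM against 79.5, 110.9 and 90.1 TPM, a log2 difference of 2.95 (SE 0.19). The groups overlap for neither. Their log2 fold changes in the authors' deposited table were 0.58 (SE 0.07) and 0.34 (SE 0.13).

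NFE2L1, the known activator of proteasome genes, had 119, 103 and 106 TPM in the wild type and 111, 109.6 and 106 TPM under the knockout label, overlapping, with a log2 difference of -0.01 (SE 0.12, limma adjusted p of 0.956). With the GC trend removed its log2 difference was 0.51 (limma adjusted p of 0.0498). In the authors' deposited table it had -0.08 (SE 0.24). Of the 8 genes of NRF1 control, NFE2L2 rose (log2 change 2.65, SE 0.42) and the small Maf genes MAFF (-1.35) and MAFK (-1.53) fell in the rRNA-depleted libraries. These calls, 1 higher and 2 lower of 8, stand beside 22.9% and 12.4% of all genes tested. With the GC trend removed MAFF was at -0.68 and MAFK at -0.78, and neither passed (limma adjusted p of 0.126 and 0.0988). NFE2L2, MAFF and MAFK did not pass without knockout-labelled library 3 either. In the authors' deposited table, NFE2L2 was the 1 gene past the threshold of the 7 on that list with an adjusted p, at 0.49 (SE 0.10). Of all genes with an adjusted p there, 19.9% passed in either direction. MAFF stood at 0.97 in the authors' deposited table (SE 0.46, adjusted p 0.127), opposite in sign to the rRNA-depleted libraries, and MAFK had no adjusted p there.

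Rows for 35 pseudogenes named after a member are in the files. Of these, 4 had a TPM above 0 in any library, at most 9.86 TPM, and the highest mean normalized count in the authors' deposited table was 3.55. Reads of a member that match a pseudogene equally well may have been split or dropped, which was not tested.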

How the data were processed

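RNA of HMC3 cells was sequenced in 16 libraries, made from 100 ng of RNA each per the labels' protocols, and grouped by genotype and library type from the titles. Per the submitters' processing notes, hg38, Trimmomatic, STAR and DESeq2 were named, with no role or order. Annotation, counting tool and strand setting are not given in the sources used here. The authors deposited TPM for the rRNA-depleted libraries, which sum to the same total in every library. Of the poly(A) libraries a single comparison was used. It gives log2 fold changes and their errors, per the file headers. The deposited p-value columns are raw and adjusted. The deposited signal column is the mean normalized count of a gene, pooled, and the deposited score column is the Wald statistic. This comparison was described and not retested, so no replicate could be left out there.

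The test was limma (version 3.58.1, R 4.3.3, moderated with a trend on expression) of log2(TPM + 1), which understates the change of low genes, keeping genes that reached 1 TPM in 3 or more libraries, with Benjamini-Hochberg adjustment over all genes at 0.05. The limma fit was tested on simulated reads with known changes. Exon lengths, GC content and shared exons came from GENCODE 29 (GRCh38), which matched 93.8% of gene identifiers and gave the gene positions. Promoters came from RefSeq. With these lengths 90.9% of TPM values above 0 were whole reads to within 0.02, which gave the depth. Reads without molecular identifiers are not independent molecules, so depth speaks for counting error only. The 3 pairs of libraries with the same number had correlations of deviations between -0.02 and 0.02. Chi-square values between libraries of a group were 1.02 to 1.54 per degree of freedom, so much of these deviations is counting noise. The correlations therefore cannot exclude that the numbers pair the samples, and the main fit treated the samples as unpaired. By the naming rule every member was accounted for, with full values for those past a threshold and for the highest and lowest of each part of the complex. Other named genes were picked from the lists after their values were seen. The results of 1 list are not reported here. Members, lists and the averaging of knockout-labelled libraries 1 and 2 were chosen with earlier results of these data known. Rescaling over protein-coding genes, voom and a minimum mean of 5 reads were added as alternatives after seeing the data. Python 3.11.15, numpy 2.4.6, pandas 2.3.3, scipy 1.17.1 and matplotlib 3.10.9 were used.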

Additional observations from a re-analysis of the deposited data

How the results depend on the processing

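Of the 17 members past the threshold in the rRNA-depleted libraries, 5 (PSMB1, PSMB2, PSMC5, PSMD2 and PSMD7) passed in all 18 alternatives, 6 others missed it only without knockout-labelled library 3, and 0 changed sign. Among members short of the threshold, PSMA6 passed in 9 of the 18 alternatives, PSMB3 in 8, PSMB4 in 7 and PSMD3 in 6. The count of members that rose was 14, and 9 at an adjusted p under 0.01. Leaving out 1 library other than knockout-labelled library 3 gave 13 to 16 that rose and 3 to 4 that fell. Of all 14789 genes, 2976 to 3356 rose and 1366 to 1829 fell in these fits. Fewer members and fewer of all genes passed without knockout-labelled library 3, where 3 samples stand against 1. The count that fell was 3, beside 1838 of all 14789 genes. It became 5 with 6 separate libraries (2247 of all genes), 5 with quantile normalization (2442) and 5 with the GC trend removed (1382 of 14669). It was 5 among genes that averaged 5 or more reads (1614 of 10487) and 7 with median ratio scaling (2499). Over protein-coding genes it was 7 (1990 of 11971), and with voom on recovered reads 8 (3509 of 14673). The cause was not tested. With the replicate block on 6 libraries 19 rose and 4 fell, against 20 and 5 without it. Of all 14789 genes, 4037 rose and 2000 fell with the block, against 4633 and 2247 without it. The median relative to all genes was 0.43, 0.35 to 0.57 with 1 library left out, 0.70 with quantile normalization and 0.044 with the GC trend removed. METTL3 ranged from 0.38 to 0.53 with 1 library left out and was 0.46 with 6 separate libraries (limma adjusted p of 0.0486). With the GC trend removed PSMA7 was 0.46, PSMD4 0.07, PSMB5 0.15 and NFE2L1 0.51 (limma adjusted p of 0.0498), each opposite in sign to the value in the report. PSMC6 was 0.02 with 6 separate libraries and 0.02 with the replicate block. With 1 library left out, signs also varied for PSMA1 (-0.135 to 1.197), PSMA7 (-0.11 to 0.051), PSMC6 (-0.082 to 0.076) and NFE2L1 (-0.051 to 0.053). Of the 20 poly(A) calls, 0 had a change of 1 or more on the log2 scale, 14 passed at 0.01 and 17 when adjusted over every deposited p. In the wild-type libraries PSMA1, PSMA2, PSMB1 and PSMC1 rest on at most 10 reads each.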
